A study of Mus musculus with 8 samples.

Results

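Egr1, Egr2, Egr3, Nr4a1, Nr4a2 and Nr4a3 are 6 immediate early transcription factor genes, and the signal of Flag-tagged HoxB4 along their promoters was examined here on promoter arrays. The members were taken by gene symbol: a probe belonged to a gene when the annotation column of the array named that symbol for it. By this rule 5 of the 6 genes had probes, 193 in all, out of 473585 placed probes and 16579 genes for which a value could be formed. Nr4a3 was named by no probe and has no value.

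The study compared mouse blood progenitors made from embryonic stem cells with and without HoxB4, a homeobox transcription factor. The cells used here came from the ES cell line B6N-22UTR. Embryoid bodies were grown for 6 days, c-Kit+CD41+ precursors were plated on OP9 stromal cells and infected with a retrovirus carrying 3xFLAG-HoxB4, and c-Kit+ progenitors were collected by magnetic sorting at day 12 of the coculture. DNA precipitated with an antibody to Flag (Flag-IP, Cy5) was hybridised against input DNA (Cy3) on 2 Agilent promoter arrays that carry different probes. HoxB4 in these cells was therefore a virally expressed, tagged protein. Each promoter was measured once, with no replicate and no dye swap, and no precipitation from cells without the tag was analysed here, so no test between conditions was possible and no p-value is given. The arrays measure DNA, so the labelled cell type could not be checked against marker transcripts. The 6 expression arrays of the series were not used here, because their probe sets were not paired with genes.

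Immediate early genes are transcribed within minutes of a stimulus, without new protein synthesis, through factors that already sit on their promoters, such as serum response factor at CArG boxes and CREB at cAMP response elements. The Egr proteins are zinc-finger factors that bind GC-rich sites and are held in check by the corepressors Nab1 and Nab2. The Nr4a proteins (Nur77, Nurr1 and Nor1) are orphan nuclear receptors that act without a known physiological ligand, bind the NBRE element as monomers and, in the case of Nr4a1 and Nr4a2, also pair with retinoid X receptors. In blood, Egr1 is known for restraining the division and exit of stem cells from the marrow, and combined loss of Nr4a1 and Nr4a3 leads to acute myeloid leukaemia in mice.

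The promoter sequences of 3 of the measured genes are shown because the signal near their starts is described further on, and because their letters show which stimulus-response elements they carry. RefSeq promoters of assembly GRCm38.p6, from 250 bases before to 50 after a start, matched 4 of the 6 genes. The entries are Egr2 at chr10:67537619-67537918 on the plus strand, Nr4a1 at chr15:101266596-101266895 on the plus strand and Nr4a2 at chr2:57123954-57124253 on the minus strand. Egr2 has 5 entries, of which 1 is printed, and it was not determined which of these starts the array annotation used. Each is written 5′ to 3′, with the motif matches found on either strand in capitals.
Egr2: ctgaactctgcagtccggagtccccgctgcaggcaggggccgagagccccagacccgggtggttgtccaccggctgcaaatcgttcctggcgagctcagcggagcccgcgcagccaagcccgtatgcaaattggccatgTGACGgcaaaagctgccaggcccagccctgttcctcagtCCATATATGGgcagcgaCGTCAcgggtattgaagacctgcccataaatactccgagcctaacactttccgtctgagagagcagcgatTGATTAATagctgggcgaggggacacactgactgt
Nr4a1: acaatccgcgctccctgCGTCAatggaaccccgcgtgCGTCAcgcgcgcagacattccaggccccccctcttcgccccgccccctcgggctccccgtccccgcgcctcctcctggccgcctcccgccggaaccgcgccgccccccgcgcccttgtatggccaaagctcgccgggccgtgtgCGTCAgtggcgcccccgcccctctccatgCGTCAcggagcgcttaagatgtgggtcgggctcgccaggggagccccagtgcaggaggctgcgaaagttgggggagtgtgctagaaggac
Nr4a2: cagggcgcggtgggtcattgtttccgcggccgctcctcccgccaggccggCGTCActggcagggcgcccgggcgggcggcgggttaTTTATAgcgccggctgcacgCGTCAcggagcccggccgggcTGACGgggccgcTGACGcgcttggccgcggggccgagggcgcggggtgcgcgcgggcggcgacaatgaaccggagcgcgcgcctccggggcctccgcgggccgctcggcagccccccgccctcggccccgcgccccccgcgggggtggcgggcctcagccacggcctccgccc

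The motifs searched on both strands were the cAMP response element (CRE) TGACGTCA, its core TGACG, the Egr site GCGTGGGCG, its core GTGGGCG, the NBRE AAAGGTCA, the Hox-Pbx motif TGATTNAT, the homeobox motif TAATTA, the TATA box TATAAA and the CArG box. The full CRE contains its core, and the Egr site contains the Egr core, so those pairs overlap. In the capitals above, TGACG and its complement CGTCA are CRE cores, CCATATATGG is a CArG box, TGATTAAT is a Hox-Pbx match and TTTATA is the complement of the TATA letters. Counting the start base as 0, the printed Egr2 promoter holds CRE cores beginning at -111 and -55, a CArG box beginning at -72 and the Hox-Pbx match beginning at 15. The Nr4a1 promoter holds 4 CRE cores, which begin at -233, -213, -69 and -40. The Nr4a2 promoter also holds 4 CRE cores, which begin at -200, -144, -123 and -111, and the TATA letters at -164. The motif content of Egr2 depends on the start chosen: 3 of its 5 entries hold these matches, and the other 2 hold no CRE core and no Hox-Pbx letters. The printed promoters carry the CRE core, which 20.8% of 32851 RefSeq promoters of the same length hold at least once. The Hox-Pbx letters occur in 3.22% of them and the CArG box in 1.63%. No full CRE, Egr site, NBRE or TAATTA was found in the printed windows. A match is a description of letters, not a measured site.

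In these arrays the value of a probe is the log2 ratio of Flag-IP to input, centred so that the median probe of each array is 0. A window is the median of 3 neighbouring probes whose starts lie at most 1000 bp apart, and distances are to the gene start as the array annotation gives them, negative upstream. The sources used here do not name the genome build of the array coordinates. The arrays held 237195 and 237185 probes besides control spots. Of these, 19 and 38 outlier probes were left out, and 323 and 415 more had no position and entered no window. On each array 95.3% of the probes kept were well above background in both channels, and none was saturated. Neighbouring probes correlated at 0.59 over the arrays, so the probes of 1 window are not independent readings. Nr4a2 lay on the first array and the other 4 genes on the second.

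The highest window of the 5 measured genes ran from 0.44 in Egr3 to 1.61 in Egr1. All were above 0, which was usual: over all genes the lower quartile was 0.52 and the 5th percentile -0.17. In 4 of the 5 genes it reached a log2 ratio of 1, which 40.3% of all 16579 genes also reached. None of the 5 reached 2, which 2.67% of all genes did. The highest window was 1.61 in Egr1, 1.40 in Nr4a1, 1.33 in Nr4a2, 1.32 in Egr2 and 0.44 in Egr3, and the median over the 5 was 1.33. Over all genes the median highest window was 0.87, with quartiles of 0.52 and 1.23. Over both arrays 27446 of 425939 windows were at or above 1 and 49283 at or below -1, so that high windows made up 35.8% of both. That share rose to 91.7% with normexp correction and to 52.9% with the brightness trend removed. Among genes with a like number of windows the highest window ranked at percentile 91.0 in Egr1, 82.4 in Nr4a1, 78.0 in Nr4a2, 71.8 in Egr2 and 11.2 in Egr3. With 5 genes and 1 array each these counts are a description.

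The order of these 4 genes does not stand out from the spread between neighbouring probes. Egr1 exceeded Nr4a1 by 0.21, while the SD over the 3 probes of the window was 0.23 in Egr1 and 0.56 in Nr4a1. Nr4a1 exceeded Nr4a2 by 0.07 and Nr4a2 exceeded Egr2 by 0.011, both smaller than either gene's SD. Only the step from Egr2 to Egr3, 0.88, was larger than the SD over probes in both genes (0.52 and 0.04). These SDs describe how even the probes of a picked window were. They do not measure how far a window would vary on a repeat. With the brightness trend removed, the order changed to Egr2 at 1.29, Nr4a1 at 1.27, Egr1 at 1.09 and Nr4a2 at 1.03, and Egr3 was again lowest at 0.35. Without the Egr1 probes shared with the neighbouring gene Reep2, Egr1 stood at 1.26, below Nr4a1, Nr4a2 and Egr2.

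**Figure D1:**
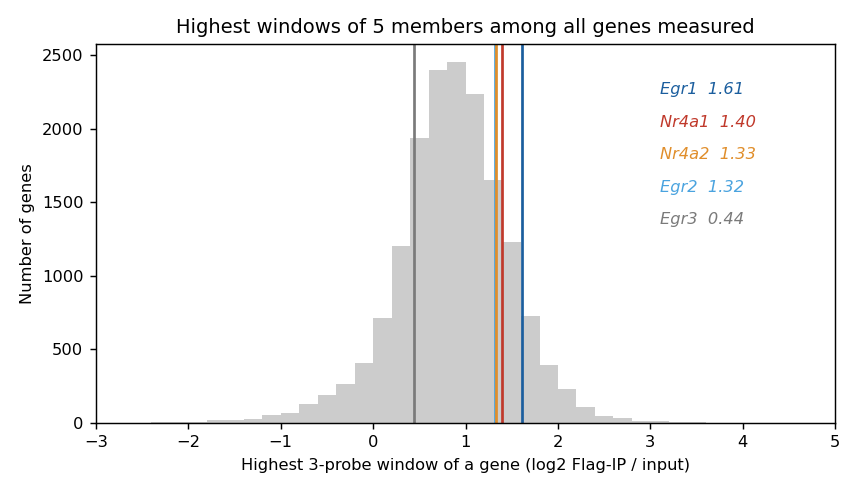
Histogram of the highest 3-probe window of each of 16579 genes (x axis, log2 Flag-IP over input; y axis, number of genes), with a line for each measured member. Egr1, Nr4a1, Nr4a2 and Egr2 lie between 1.32 and 1.61, to the right of the all-gene median of 0.87, and Egr3 lies to its left at 0.44.

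Egr1, the founding member of the Egr family and a target of serum response factor, was covered by 33 probes on chromosome 18 (34981816 to 34989688), from -5342 to 2486 bp. Its signal was high at the far upstream edge, on probes shared with another gene, and low at the start itself. The probe at -5342 bp had a log2 ratio of 0.90, and the next 4 had 1.25 at -5179 bp, 1.67 at -5057 bp, 1.61 at -4836 bp and 1.44 at -4675 bp. At the 3 probes beyond these, from -4430 to -4051 bp, the ratio was 0.37 to 0.59. The highest window, centred at -5057 bp (34981979 to 34982366), was 1.61, a ratio of 3.05, and ranked at the 90.9th percentile of all genes. At that distance from a start the median window over all genes was -0.21, and the Egr1 window ranked at the 99.6th percentile of windows lying there. This rank sets a window picked as a gene's highest beside windows that were not picked, so a high rank is partly built in. Ranks by position of the other picked windows below share this limit. Every one of the 33 probes names Egr1 by its symbol. The far upstream stretch is shared in the annotation: 8 of the 33 also carry an accession of Reep2, an endoplasmic reticulum protein gene. Their signal therefore cannot be assigned to Egr1 alone, and how far they lie from Reep2 is not given here. All 3 probes of the highest window are among them, and without the 8 shared probes the highest window of Egr1 was 1.26, at 1271 bp.

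A second rise in Egr1 lay inside the gene. The probes at 1142, 1271 and 1403 bp had ratios of 1.26, 0.78 and 1.80, giving a window of 1.26 at the 97.2nd percentile for that position. A further, weaker rise at -1041 and -821 bp gave windows of 1.03. Between these lay the lowest window, -0.40 at -84 bp, against a median of 0.31 for windows at that distance. The 5 probes within 500 bp of the start read -0.06 at -460 bp, -0.40 at -353 bp, 0.32 at -84 bp, -0.40 at 202 bp and 0.21 at 376 bp. They averaged -0.07 ± 0.33 (SD over 5 probes), at the 23.5th percentile of 16181 genes with such a mean. The 12 probes beyond 2000 bp upstream averaged 0.71 ± 0.65 (SD over 12 probes). This mean was carried by the 8 probes shared with Reep2, which averaged 1.04 ± 0.52 (SD over 8 probes), while the 4 that name Egr1 alone averaged 0.04 ± 0.24 (SD over 4 probes). The 10 probes more than 500 bp inside averaged 0.75 ± 0.49 (SD over 10 probes), all 10 above 0.

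Egr2 (Krox20), known for hindbrain patterning, myelination and limits on T cell activation, was covered by 44 probes on chromosome 10 (66928159 to 66935856), from -5046 to 2600 bp. Its signal was spread unevenly over the nearer upstream part, the start and the body of the gene. The part beyond 2000 bp upstream averaged near 0, where the mean over all genes' probes was lower, between -0.33 and -0.29. The probes at 1968, 2241, 2373 and 2600 bp had ratios of 1.32, 1.56, 1.23 and 0.74. The highest window was 1.32 at 1968 bp (66934857 to 66935500), at the 79.3rd percentile of all genes and the 98.3rd for its position. Its 3 probes ranged from 0.56 to 1.56, whereas the next window at 2241 bp, with the same value, had probes from 1.23 to 1.56.

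A window of equal height sat on the Egr2 start. The 7 probes within 500 bp read 0.77 at -500 bp, 0.42 at -375 bp, 1.64 at -260 bp, 1.32 at -32 bp, -0.23 at 131 bp, 0.87 at 241 bp and 0.80 at 386 bp. Their mean was 0.80 ± 0.60 (SD over 7 probes), the highest of the 5 genes, at the 80.8th percentile. With normexp correction it was 0.78, below the 0.82 of Nr4a1. The window at -260 bp was 1.32 and ranked at the 95.0th percentile for its position, and a further window of 1.22 lay at -1315 bp. The 18 probes beyond 2000 bp upstream averaged 0.06 ± 0.48 (SD over 18 probes), with single probes from -0.99 at -3539 bp to 1.09 at -2065 bp. Of the 42 windows of Egr2, 36 lay above the median for their position and 11 at or above the 90th percentile.

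Egr3, which is itself a target of Egr1 and acts in muscle spindle formation and T cell tolerance, was covered by 42 probes on chromosome 14 (68807099 to 68815049), from -5403 to 2503 bp. Its profile was flat along the whole region and had no high window. No window reached 1, and the highest was 0.44 at 375 bp (68812561 to 68813073), with 3 probes between 0.38 and 0.45. That value stood at the 20.8th percentile of all genes. Single probes went higher, up to 1.20 at -2866 bp, but their neighbours did not follow.

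The windows of Egr3 varied less than those of nearly every gene. The SD over its 40 windows was 0.204, against a median of 0.57 over 11099 genes with at least 20 windows, which placed it at the 0.135th percentile. Under the other ways of processing the signals that percentile ran from 0.0959 to 4.16. The 4 probes near the start read 0.02 at -350 bp, 0.16 at -111 bp, 0.38 at 61 bp and 0.44 at 375 bp, with a mean of 0.25 ± 0.20 (SD over 4 probes) at the 44.1st percentile. None of the 40 windows reached the 90th percentile for its position, although 33 lay above the median. The input DNA was bright just upstream of the Egr3 start, with intensities of 7546 at -350 bp and 7660 at -111 bp. It was lower inside the gene, at 1138 (61 bp) and 1102 (375 bp), where the highest window lay. The median over these probes, 4340, was at the 97.7th percentile of genes. The part of this brightness in the low ratio was not tested.

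Nr4a1 (Nur77), which is induced by antigen receptor signals and drives apoptosis of thymocytes, was covered by 34 probes on chromosome 15 (101089491 to 101096878), from -5375 to 1959 bp. Its signal peaked about midway along the upstream region. The probes there read 1.06 at -3653 bp, 0.08 at -3290 bp, 1.92 at -3094 bp, 0.80 at -2970 bp, 1.40 at -2753 bp and 1.32 at -2616 bp, and fell to -0.08 at -2413 bp. The highest window was 1.40 at -2970 bp (101091775 to 101092167), at the 83.0th percentile of all genes and the 99.2nd for its position. Its 3 probes were uneven, from 0.80 to 1.92, and the probe at -3290 bp inside the same rise was near 0.

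Near the Nr4a1 start the signal was above 0, with the probe closest to it near 0. The 5 probes read 0.69 at -390 bp, 0.98 at -264 bp, 0.05 at -42 bp, 0.79 at 153 bp and 0.76 at 261 bp. All 5 were above 0, with a mean of 0.66 ± 0.35 (SD over 5 probes) at the 73.4th percentile. With the brightness trend removed this mean was 0.16, at the 47.5th percentile. Inside the gene the signal dropped to its lowest window, -0.30 at 844 bp. Windows at -5137, -5025 and -4776 bp were nearly as low, at -0.29. With the brightness trend removed the lowest window of Nr4a1, -0.395, lay at -4665 bp. Of 32 windows, 4 reached 1 and 27 lay above the median for their position. Only 1 window reached 1 with normexp correction, and only 1 with the brightness trend removed.

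Nr4a2 (Nurr1), needed for midbrain dopamine neurons and linked in blood to stem cell quiescence, was covered by 40 probes on the minus strand of chromosome 2 (56928337 to 56936019), from -5348 to 2276 bp. It held a rise upstream of the start and the lowest window among the 5 genes. Between -2281 and -800 bp the probes read 1.51, 0.98, 1.33, 0.90, 1.85, -0.51, 1.03 and 1.66, so that 1 of the 8 lay below 0. The highest window, 1.33 at -2120 bp (56932538 to 56932952), stood at the 79.8th percentile of all genes and the 98.7th for its position, and the window at -1779 bp had the same value.

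A stretch farther upstream in Nr4a2 had ratios below 0, although the outermost probes, at -5348 and -5210 bp, read 0.12 and 0.38. The probes at -4966, -4844, -4672 and -4444 bp read -1.53, -1.53, -1.22 and -1.89, and the lowest window was -1.53 at -4672 bp, at the 5.71st percentile for its position. These probes were dim in the Flag-IP channel, between 139 and 215, against 386 to 723 in the input. In this stretch the lowest window was -0.75 with normexp correction and -0.89 with the brightness trend removed, and under the latter the gene's lowest window, -0.90, lay elsewhere, at -3227 bp. The 5 probes near the start read 0.73 at -294 bp, 0.95 at -174 bp, 0.72 at -33 bp, -1.19 at 118 bp and 0.95 at 301 bp, so that 1 probe set the wide SD of the mean, 0.43 ± 0.91 (SD over 5 probes).

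**Figure D2:**
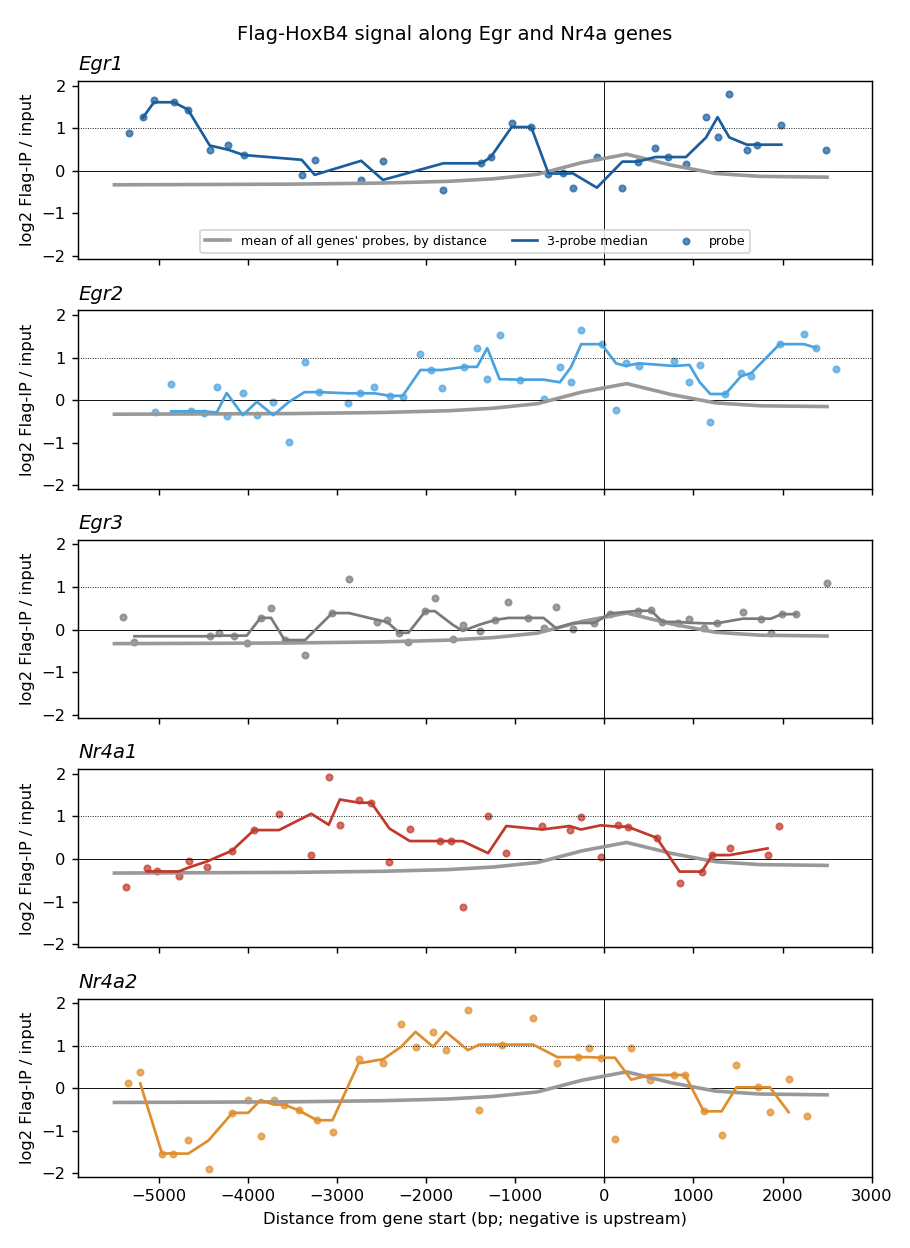
Log2 ratio of Flag-IP to input (y axis) against distance from the gene start in bp (x axis, negative upstream) for the 5 measured genes: points are probes, the coloured line joins 3-probe medians, the grey line is the mean of all genes' probes by distance, and the dotted line marks a ratio of 1. The rises of Egr1 at -5057 bp, Nr4a1 at -2970 bp and Nr4a2 at -2120 bp stand away from the start, where the grey line peaks (with the brightness trend removed, that of Nr4a2 is highest at -527 bp), and Egr3 does not exceed 0.44 in any window.

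Set against the usual shape of the signal, the members differed in where it was highest. Over all genes the mean probe ratio rose from -0.33 between -6000 and -5001 bp to 0.19 in the last 500 bp before the start and 0.39 in the first 500 bp after it, and fell to -0.15 beyond 2000 bp. The highest window lay within 500 bp of the start in 35.6% of genes and within 1000 bp in 52.9%. Among the members this held for 1 of 5 at both distances, Egr3. In Egr2 the window of nearly equal height at -260 bp did lie at the start. The place of the highest window was less stable than its height: with normexp correction it lay at -260 bp in Egr2 and at -2553 bp in Egr3, and with the brightness trend removed at -5276 bp in Egr3, -1315 bp in Egr2 and -527 bp in Nr4a2. Under the latter, Nr4a2 and not Egr3 was the member within 1000 bp of the start, and none lay within 500 bp. The windows ranked at a median percentile of 79.1 for their position in Nr4a1, 76.8 in Egr2, 75.1 in Egr1, 59.3 in Egr3 and 52.6 in Nr4a2.

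The mean within 500 bp of the start gave another order of the genes than the highest window. Egr2 was first at 0.80, followed by Nr4a1 at 0.66, Nr4a2 at 0.43, Egr3 at 0.25 and Egr1 at -0.07. Each step between neighbours in this order (0.14, 0.22, 0.19 and 0.31) was smaller than the larger SD over probes of the pair. With normexp correction Nr4a1 (0.82) stood above Egr2 (0.78). The mean was above 0 in 4 of 5 members and in 73.3% of genes, and its median was 0.43 over the members and 0.32 over all genes. The higher median of the members did not hold with the brightness trend removed. The all-gene median was then 0.19, and only Egr2 lay above it. Egr1 was last at the start. Its first rank by the highest window rested on the probes shared with Reep2, and without them it stood above Egr3 alone, at 1.26. The sign of its near-start mean depended on the processing: it was 0.25 with normexp correction and 0.0028 without centring. That of Egr3 was -0.12 with the brightness trend removed. There Egr2 (0.52) was highest, and Nr4a1 (0.16, at the 47.5th percentile) was close to Nr4a2 (0.12).

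The ratio near a start moved with input brightness and with CpG content over all genes. When genes were cut into 5 groups of equal size by median input intensity near the start, the median near-start ratio was -0.11, 0.23, 0.44, 0.51 and 0.38 from the dimmest group to the brightest. Egr1, Egr3 and Nr4a1 lay in the brightest group and Egr2 and Nr4a2 in the one below it. In 5 groups by the number of CpG in the promoter, from few to many, the medians were -0.21, 0.27, 0.52, 0.53 and 0.37, and with the brightness trend removed they were -0.04, 0.24, 0.33, 0.28 and 0.12. The printed promoters had 19 CpG in Egr2, 35 in Nr4a1 and 52 in Nr4a2. The middle group ran from 13 to 20 CpG. The group with the most ran from 27.3 to 65, a range that holds the counts of Nr4a1 and Nr4a2. In these groups a gene counts by the mean over its RefSeq entries. The entries of Egr2 ran from 16 to 32 CpG, so the printed 19 does not give the group of that gene. The 361 measured genes with the Hox-Pbx letters had a median near-start ratio of 0.0043, against 0.34 for those without, and the 3760 with the CRE core had 0.47 against 0.28. With the brightness trend removed these medians were -0.0038 against 0.20 and 0.26 against 0.17. The part of brightness and base content in the members' values was not tested.

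**Figure D3:**
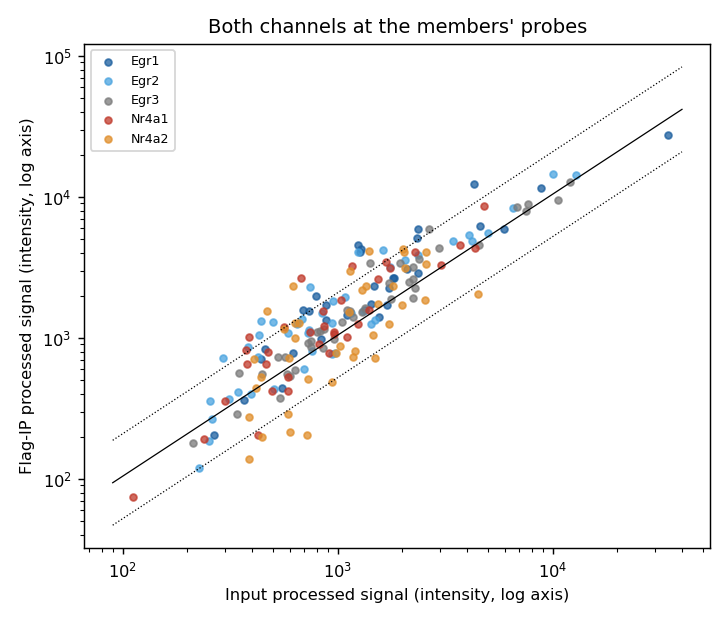
Flag-IP against input signal (both axes log-scaled intensities) for the probes of the 5 measured genes, with a solid line where the centred log2 ratio is 0 and dotted lines where it is 1 and -1. The bright input probes of the Egr3 start lie close to the line, and the 4 dim Nr4a2 probes between -4966 and -4444 bp lie below the lower dotted line.

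Genes known to act with, above or beside the members were examined as 3 lists. Among partners and paralogs (Nab1, Nab2, the retinoid X receptors and Egr4), 4 of 6 were measured and 1 reached a ratio of 1, with a median highest window of 0.91. Egr4 was named by no probe. Among 11 measured upstream regulators (serum response factor, its Elk and myocardin-related partners, CREB and MEF2 factors), 8 reached 1 and 0 reached 2, with a median of 1.26. Among 32 measured other immediate early genes, 24 reached 1 and 2 reached 2, with a median of 1.40 and a range of 0.65 to 2.36. These counts and medians stand beside 40.3% of all genes at or above 1, 2.67% at or above 2 and an all-gene median of 0.87, and no list was tested. The 2 genes of that list at or above 2 were Dusp6, a phosphatase that dampens ERK signalling, with 2.36 at -124 bp, and Per1, a circadian repressor, with 2.08 at -3321 bp. Dusp6 ranked at the 99.2nd percentile of all genes, and its near-start mean of 1.81 exceeded that of every member.

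**Figure D4:**
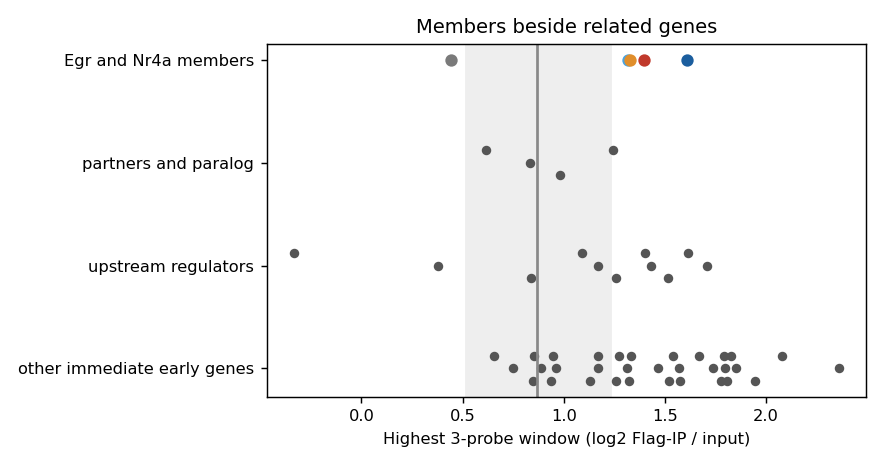
Highest window (log2 Flag-IP over input) of each measured gene in the members and in the 3 lists, 1 point a gene, where the vertical line is the median of all genes (0.87) and the grey band runs between their quartiles (0.52 and 1.23). The medians of the groups, not drawn, are 1.33 for the members, 0.91 for partners and paralog, 1.26 for upstream regulators and 1.40 for other immediate early genes.

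**Figure D5:**
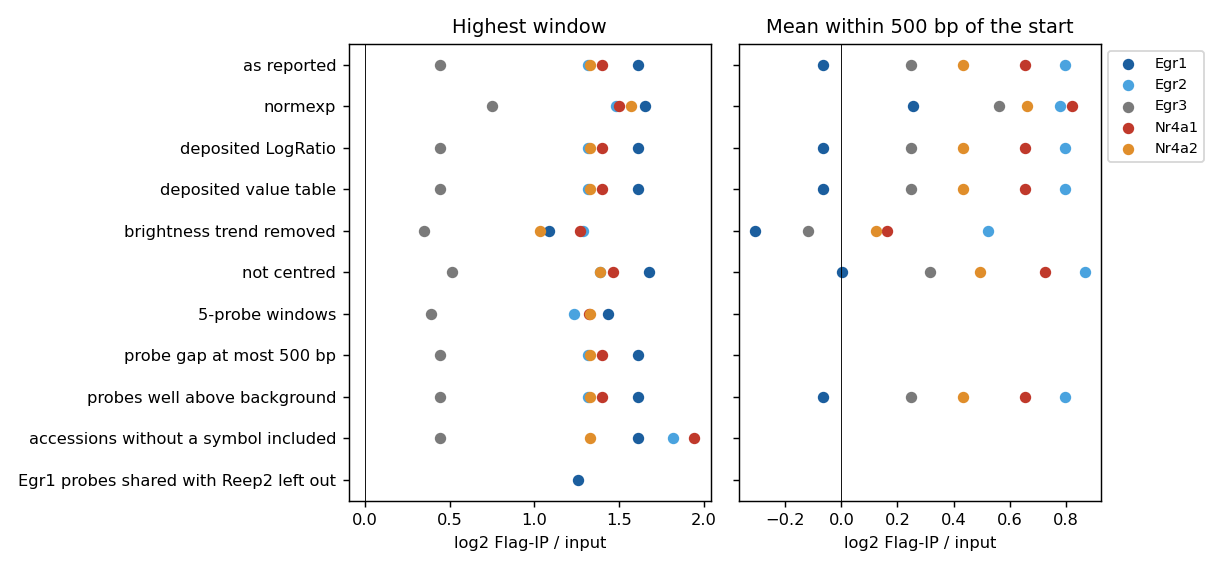
Highest window (left) and mean within 500 bp of the start (right), in log2 Flag-IP over input, of the 5 measured genes under each way of processing the signals (vertical axis); missing points were not computed. Egr3 is lowest on the left in the 10 with all genes computed, the last row shows Egr1 alone, and the near-start means of Egr1 and Egr3 cross 0.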

How the data were processed

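Intensities of Flag-IP (Cy5) and input (Cy3) DNA were deposited after background subtraction and dye normalisation in Agilent Feature Extraction 10.1.1.1, per the file headers; DNA had been amplified with T7 RNA polymerase, per the labels' protocols. The deposited log10 ratio column and value tables, on the log10 scale, served as alternatives, as did normexp correction of the deposited mean and background intensities in limma 3.58.1 with R 4.3.3.

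Log2 ratios were computed and centred per array in Python 3.11.15 (numpy 2.4.6, pandas 2.3.3, statsmodels 0.14.6), leaving out control spots and 19 and 38 outlier probes. A window counted for a gene when all 3 probes named its symbol. Of 16828 names, accessions linked 16246 to RefSeq, symbols 300 and synonyms 148, while 134 had no link and stayed unchanged. The scripts were tested on simulated data. All members were named, and of the lists only Egr4 and genes at or above 2; Nab1 and Nab2 are named without values. The members and lists were chosen with earlier results of these data known. RefSeq GRCm38.p6 gave names and promoter sequences only.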

Additional observations from a re-analysis of the deposited data

How the results depend on the processing

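The signals were reprocessed in 8 planned ways, and 2 more alternatives were chosen after seeing the data: adding probes named only by an accession, and leaving out the Egr1 probes shared with Reep2. Among the planned ways, the deposited log10 ratio column and value tables hold nearly the same ratios as those reported (correlation 1.0). Their agreement adds no separate check. In all 10, 4 members reached 1 and 0 reached 2, while, in the 9 that cover all genes, the share of all genes at or above 1 ran from 25.5% (4169 genes, 5-probe windows) to 49.1% (normexp), and at or above 2 from 0.948% (155 genes) to 4.08% (676 genes); 167 genes reached 2 with the brightness trend removed. The highest window of Egr1 ran from 1.09 to 1.68 and that of Egr3 from 0.35 to 0.75; without the shared probes that of Egr1 was 1.26. The near-start mean of Egr1 changed sign to 0.25 with normexp and to 0.0028 without centring, and that of Egr3 to -0.12 with the brightness trend removed; the cause was not tested. The SD over windows of Egr3, an added measure, stayed between the 0.0959th and 4.16th percentiles. The lowest window of Nr4a2, also added, was -0.75 with normexp. No paired analysis was possible because each promoter was measured on 1 array. One probe, in Nr4a1, was not well above background.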

Other observations

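Probes that name a member only by an accession, without its symbol, lay at neighbouring genes and held higher windows than the members' own. About Egr2, windows of 1.70 to 1.82 lay between 11429 and 11939 bp from its start, on probes named for Ado, a thiol dioxygenase gene. About Nr4a1, a window of 1.95 lay at 17160 bp, on probes named for Atg101, an autophagy gene. With these probes counted, the highest windows of Egr2 and Nr4a1 became 1.82 and 1.95.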
